A study of Homo sapiens with 18 samples.

Results

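The transcription factors described here steer blood progenitors into the myeloid lineages. They are SPI1, CEBPA, CEBPB, CEBPD, CEBPE, GFI1, IRF8, KLF4 and RUNX1. They were chosen by gene symbol: a probe of the deposited table belongs to them when its only gene symbol is 1 of these 9. All 9 had exactly 1 probe, out of 17687 symbols that 17709 of the 21448 probes carry.

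The cells are OCI-AML3, a human acute myeloid leukaemia line with the genotype labelled wildtype. They were exposed for 24 h to HDM201 at 500 nM, to RG7112 at 2 µM or to the solvent DMSO, with 6 arrays in each group. Both compounds are named MDM2 inhibitors by the series; MDM2 is the ubiquitin ligase that keeps the p53 protein low. The labels call the arrays of a group biological replicates without saying how cultures were kept apart, so the p-values speak of the spread among these arrays, which may be technical. It is 1 line, with 1 dose and 1 time for each compound.

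PU.1, the product of SPI1, opens myeloid enhancers in progenitors and macrophages, and its dose helps to set the choice between lineages. The C/EBP proteins are leucine zipper factors that bind the same DNA site as dimers: C/EBPα starts the granulocyte programme, C/EBPε completes it, and C/EBPβ and C/EBPδ act in emergency granulopoiesis, in monocytes and in inflammation. GFI1 is a repressor that favours granulocytes over monocytes, IRF8 and KLF4 act on the monocyte side, and RUNX1 is needed for blood stem cells to form and is often altered in this leukaemia.

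The promoter sequences are shown for the C/EBP family because its members parted in these data: CEBPB rose, whereas CEBPA and CEBPE did not pass the test. RefSeq promoter entries (build GRCh38.p14) were matched by symbol for 7 of the 9 genes. SPI1 gave no match. Entries on the chromosome that carries CEBPD were left out of the search, so CEBPD could not be matched. The text uses the 250 bases before the annotated start, read on the gene's own strand. CEBPB has a second entry, whose window lies further downstream and is not printed. Both strands were searched for the C/EBP site TTNNGCAA, the CRE half-site TGACG, the AP-1 site TGANTCA, the STAT site TTCNNNGAA, the PU.1 site GAGGAAG, the RUNX site TGTGGT, the KLF box CACCC, the EGR site GNGTGGGNG and the p53 half-site. Capitals mark every match except those of the KLF box.
CEBPB, chr20:50190333-50190582, plus strand: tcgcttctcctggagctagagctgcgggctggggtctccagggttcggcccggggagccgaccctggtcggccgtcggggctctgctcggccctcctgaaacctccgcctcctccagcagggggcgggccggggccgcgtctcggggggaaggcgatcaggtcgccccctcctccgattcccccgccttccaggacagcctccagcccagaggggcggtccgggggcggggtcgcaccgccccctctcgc
CEBPA, chr19:33302535-33302784, minus strand: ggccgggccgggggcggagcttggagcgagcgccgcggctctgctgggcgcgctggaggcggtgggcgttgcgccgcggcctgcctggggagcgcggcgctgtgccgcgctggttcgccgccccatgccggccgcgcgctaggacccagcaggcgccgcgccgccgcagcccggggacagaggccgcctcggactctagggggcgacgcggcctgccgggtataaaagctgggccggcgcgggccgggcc
CEBPE, chr14:23119256-23119505, minus strand: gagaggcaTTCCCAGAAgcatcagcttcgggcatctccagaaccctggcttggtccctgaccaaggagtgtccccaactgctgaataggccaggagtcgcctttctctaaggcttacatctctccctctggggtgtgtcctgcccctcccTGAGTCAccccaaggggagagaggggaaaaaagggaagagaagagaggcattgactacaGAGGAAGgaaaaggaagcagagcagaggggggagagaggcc

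The CEBPE window held 1 STAT, 1 AP-1 and 1 PU.1 match and 2 KLF boxes. Its PU.1 match ended 35 bases before the start when the base next to the start counts as 1. Its G and C content was 57.2%. The printed CEBPB and CEBPA windows, at 75.6% and 81.2% G and C, held none of the letters searched, whereas the second CEBPB window held 1 CRE half-site, ending 53 bases before its start, and 2 KLF boxes. Over 35116 promoter windows of the same length the shares with a match were 6.57% for the STAT site, 6.57% for the AP-1 site, 11.2% for the PU.1 site, 9.05% for the C/EBP site and 21.2% for the CRE half-site. The other shares were 11% for RUNX, 14.6% for EGR, 54.7% for the KLF box and 5.57% for the p53 half-site. Among the windows not printed of the other genes, GFI1 held a C/EBP match in 1 of its 3 windows and a RUNX match in the same one, IRF8 a RUNX match in 1 of 2, and KLF4 had 2 CRE half-sites; GFI1 held 1 KLF box in each of its other 2 windows and RUNX1 held 1. A match describes letters and not a bound site.

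Array medians lay between 6.44 and 6.57 and the lowest signals between 2.66 and 2.85 on the log2 scale. The p53 targets CDKN1A and MDM2 were higher on every treated array than on any DMSO array, with log2 differences of 4.10 and 2.58 under HDM201 and of 3.97 and 2.57 under RG7112. RG7112 replicate 3 had a narrower signal range (interquartile range 3.45, against 3.70 to 3.91 on the other arrays), and replicates 1 to 3 stood apart from replicates 4 to 6. Several results that lean on that RG7112 array are given with and without it. Differences from DMSO within each set are given for SPI1, CEBPB and CEBPD. The closing section gives a few more and names other genes that lost a call within a set. Of 7 myeloid leukaemia markers 6 were measured: the pan-leukocyte protein tyrosine phosphatase PTPRC (group means 11.26 to 11.40) and the aminopeptidase ANPEP (9.24 to 9.50) were high, KIT (3.61 to 3.70) and CLEC12A (3.67 to 3.84) were near the lowest signals, and none changed. Of 14 markers of lymphoid, erythroid, platelet, stromal and epithelial cells 11 were measured, with summed log2 levels of 58.2 to 60.6 under HDM201, 59.3 to 63.8 under RG7112 and 58.0 to 60.5 under DMSO. Only EPCAM passed among these, lower under HDM201 at a mean of 3.92 against 4.32 under DMSO, and the part of other cells in the results below was not tested.

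SPI1, CEBPB and CEBPD rose under both compounds, none of the 9 genes fell, and the other 6 did not pass in either comparison with DMSO. A gene is said to have risen or fallen when limma's moderated test across the table gave a p under 0.05 after Benjamini-Hochberg adjustment over all 21448 probes. The 3 of 9 stand beside 18.8% of all probes called in HDM201 minus DMSO (9.16% up, 9.64% down) and 17.5% in RG7112 minus DMSO (7.9% up, 9.61% down). The median log2 difference of the 9 genes was 0.21 under HDM201 and 0.06 under RG7112, where the median over all probes was 0.02 and 0.03. Both compounds were set against the same DMSO arrays, so the comparisons are not independent, and in a bulk measurement more RNA per cell and more cells of a kind cannot be told apart. All values below are log2 signals, and differences are group means subtracted on that scale with the standard error (SE) of the model and n = 6 arrays a group.

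**Figure D1:**
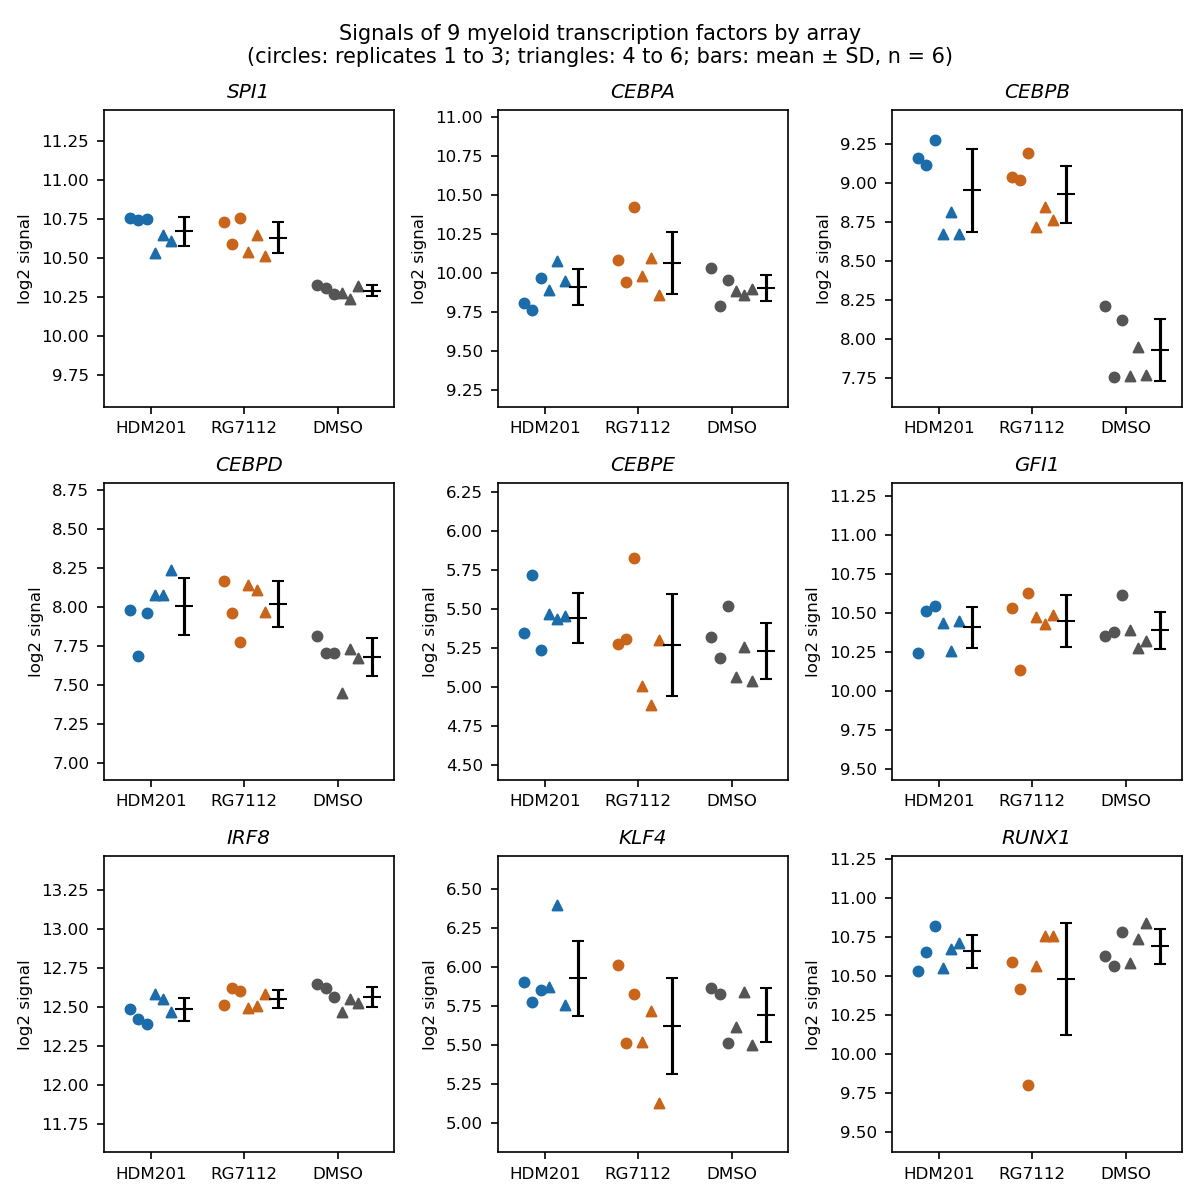
Log2 signal of each of the 9 genes on every array, in the groups HDM201, RG7112 and DMSO, with circles for replicates 1 to 3, triangles for replicates 4 to 6 and bars for the mean ± SD (n = 6); every panel spans the same height. The treated arrays of SPI1 and CEBPB lie above all DMSO arrays, while the groups of CEBPA, GFI1 and IRF8 overlap; RUNX1 on RG7112 replicate 3 lies alone at 9.80.

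SPI1 encodes PU.1, the ETS factor at the head of the myeloid programme. The HDM201 arrays had a lowest SPI1 signal of 10.53, a median of 10.70 and a highest signal of 10.76. On RG7112 arrays the SPI1 signals were 10.51, 10.62 and 10.76 in the same order, and on DMSO arrays 10.24, 10.29 and 10.33. All 12 treated arrays lay above the highest DMSO array, in a comparison where 6.63% of all probes were separated upwards under HDM201 and 4.29% under RG7112. The rise was modest: 1.30-fold under HDM201 (log2 difference 0.38 ± 0.07 SE, adjusted p = 2.70e-04 by limma) and 1.27-fold under RG7112 (0.34 ± 0.07, adjusted p = 0.00111). A difference larger than that of SPI1 in size was seen for 15.6% of all probes under HDM201 and 18.3% under RG7112. The DMSO arrays spread little, with an SD of 0.04 against 0.09 under HDM201 and 0.10 under RG7112. Within replicates 1 to 3 the SPI1 difference was 0.45 under HDM201 and 0.39 under RG7112, and within replicates 4 to 6 it was 0.32 and 0.29. With the 3 arrays a group of replicates 4 to 6 alone the RG7112 call was lost (adjusted p = 0.0685).

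CEBPB, which encodes the factor of emergency granulopoiesis and macrophage activation, had the largest differences of the 9 genes under both compounds. Its signals ran from 8.67 over a median of 8.96 to 9.28 on HDM201 arrays. On RG7112 arrays they ran from 8.72 over 8.93 to 9.19, and on DMSO arrays from 7.76 over 7.86 to 8.21. The lowest treated array thus lay above the highest DMSO array, for both compounds. CEBPB rose 2.03-fold under HDM201 (1.02 ± 0.12 SE, 95% interval 0.77 to 1.28, adjusted p = 2.47e-06 by limma). Under RG7112 it rose 2.00-fold (1.00 ± 0.12, 95% interval 0.75 to 1.25, adjusted p = 5.83e-06). Only 3.17% and 2.56% of all probes had a larger difference in size in these 2 comparisons. The gain was present in both sets of replicates: 1.15 under HDM201 and 1.05 under RG7112 within replicates 1 to 3, and 0.89 and 0.95 within replicates 4 to 6.

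The level of CEBPB itself differed between the sets of replicates. Under HDM201 replicates 1 to 3 averaged 9.18 ± 0.08 and replicates 4 to 6 averaged 8.72 ± 0.08 (SD, n = 3 arrays each), a difference of 0.46 ± 0.12 SE (adjusted p = 0.0403 by limma), where 2.76% of all probes differed. Under RG7112 the corresponding means were 9.08 and 8.78 (difference 0.31, adjusted p = 0.199, with 2.14% of probes differing), and under DMSO 8.03 and 7.83 (difference 0.20, adjusted p = 1.00, with 0.303%). No other member differed between the sets within a group. What the replicate numbers mark is not given in the sources used here. The split into sets was seen in these same data, so p-values for differences between the sets do not have their usual meaning.

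CEBPD encodes C/EBPδ, an acute phase factor of monocytes and neutrophils. On HDM201 arrays the CEBPD signals were 7.69 at the lowest, 8.03 at the median and 8.23 at the highest. The RG7112 arrays gave 7.77, 8.04 and 8.16 in the same order, and the DMSO arrays 7.45, 7.70 and 7.81. In each treated group 5 of 6 arrays exceeded the highest DMSO array, so the groups overlapped by 1 array each, HDM201 replicate 2 and RG7112 replicate 3. CEBPD rose 1.25-fold under HDM201 (0.32 ± 0.09 SE, adjusted p = 0.0166 by limma) and 1.27-fold under RG7112 (0.34 ± 0.09, adjusted p = 0.0138). These were the weakest of the calls. With any 1 array left out the adjusted p ranged from 0.00397 to 0.0493 under HDM201 and from 0.00404 to 0.0417 under RG7112. Within replicates 1 to 3 the differences were 0.14 (adjusted p = 0.648) and 0.23 (adjusted p = 0.360), and within replicates 4 to 6 they were 0.51 (adjusted p = 0.00758) and 0.45 (adjusted p = 0.0178). The response was not shown to differ between the sets, since that test across all probes gave no adjusted p below 0.792 for any of the 9 genes under HDM201 or below 0.846 under RG7112, where 0.149% and 0.0373% of all probes passed. Unadjusted, CEBPD under HDM201 was the only gene of the 9 with a p under 0.05 in that test, where 6.13% of all probes had such a p under HDM201.

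**Figure D2:**
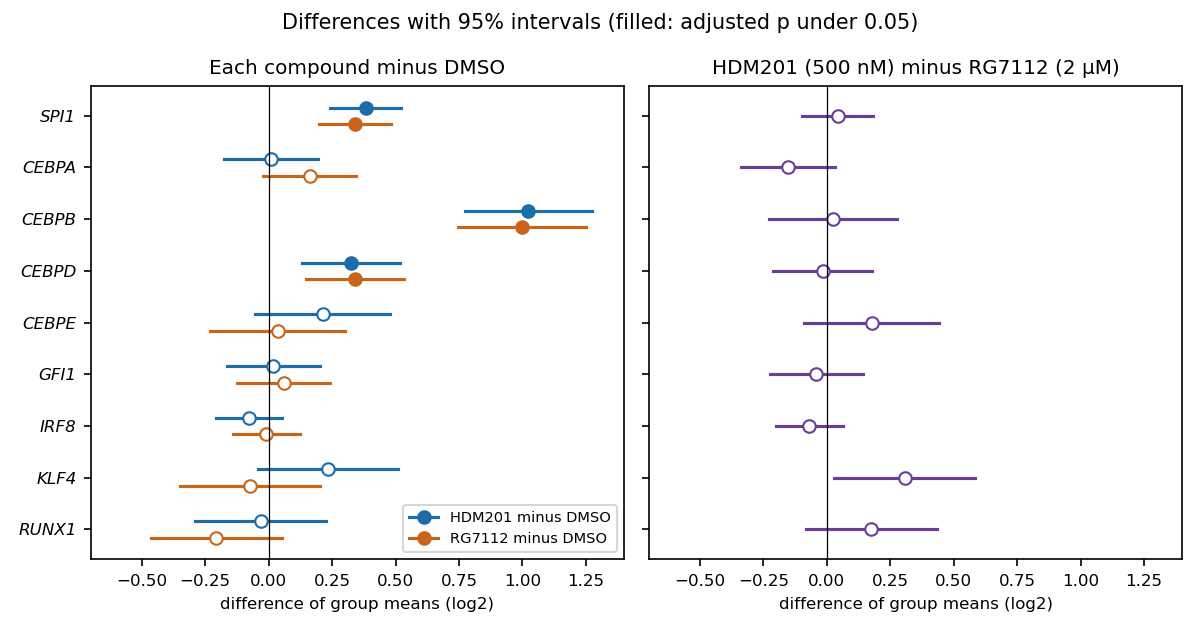
Log2 differences between group means, with their 95% intervals, for the 9 genes, each compound minus DMSO on the left and HDM201 minus RG7112 on the right; filled points have an adjusted p under 0.05. SPI1, CEBPB and CEBPD are filled for both compounds, CEBPB near 1 and the other two between 0.32 and 0.38, and no point is filled on the right.

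CEBPA encodes the founder of the granulocyte programme, a gene often mutated in acute myeloid leukaemia. Its signals were 9.76, 9.92 and 10.08 (lowest, median and highest) on HDM201 arrays, 9.85, 10.03 and 10.42 on RG7112 arrays and 9.78, 9.89 and 10.03 on DMSO arrays. The 3 groups overlapped. The difference was 0.01 ± 0.09 SE under HDM201 (95% interval -0.18 to 0.19, adjusted p = 0.969 by limma) and 0.16 ± 0.09 under RG7112 (95% interval -0.02 to 0.35, adjusted p = 0.225). RG7112 replicate 3 was the highest of all arrays for CEBPA, and without it the RG7112 difference was 0.09.

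CEBPE, which drives the late steps of granulocyte maturation and the secondary granules, had signals below the array medians. They were 5.24, 5.44 and 5.72 on HDM201 arrays, 4.88, 5.28 and 5.83 on RG7112 arrays and 5.03, 5.22 and 5.52 on DMSO arrays. The groups overlapped throughout, and the deposited values hold no detection call that would place these signals above or below background. The CEBPE difference was 0.21 ± 0.13 SE under HDM201 (adjusted p = 0.299 by limma) and 0.04 ± 0.13 under RG7112 (adjusted p = 0.887). The highest RG7112 value was again that of replicate 3, and without it the sign turned, to -0.08.

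GFI1, the zinc finger repressor of monocyte genes in granulocyte precursors, had signals of 10.24, 10.44 and 10.54 on HDM201 arrays. On RG7112 arrays they were 10.13, 10.48 and 10.63, and on DMSO arrays 10.28, 10.37 and 10.61. These ranges nearly coincide. GFI1 differed by 0.02 ± 0.09 SE under HDM201 (95% interval -0.16 to 0.20, adjusted p = 0.929 by limma) and by 0.06 ± 0.09 under RG7112 (95% interval -0.12 to 0.24, adjusted p = 0.697).

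IRF8, the interferon regulatory factor that supports monocyte and dendritic cell development, had the smallest spread of the 9 genes under both compounds. Its signals were 12.39, 12.48 and 12.58 on HDM201 arrays, 12.49, 12.55 and 12.62 on RG7112 arrays and 12.47, 12.56 and 12.64 on DMSO arrays. The SD within a group was 0.07 under HDM201, 0.06 under RG7112 and 0.06 under DMSO. IRF8 differed by -0.08 ± 0.06 SE under HDM201 (95% interval -0.21 to 0.05, adjusted p = 0.473 by limma) and by -0.01 ± 0.06 under RG7112 (95% interval -0.14 to 0.12, adjusted p = 0.946).

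KLF4, a zinc finger factor that promotes monocyte differentiation, also had signals below the array medians. They were 5.76, 5.86 and 6.40 on HDM201 arrays, 5.12, 5.62 and 6.01 on RG7112 arrays and 5.49, 5.72 and 5.86 on DMSO arrays. HDM201 replicate 5 stood alone at 6.40, above the next HDM201 array at 5.90. KLF4 differed by 0.23 ± 0.13 SE under HDM201 (adjusted p = 0.268 by limma), by 0.14 without that array, and by -0.07 ± 0.13 under RG7112 (adjusted p = 0.756).

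RUNX1, the core binding factor subunit that binds DNA, had signals of 10.53, 10.66 and 10.82 on HDM201 arrays. The RG7112 arrays gave 9.80, 10.58 and 10.76, and the DMSO arrays 10.56, 10.68 and 10.84. The low value belonged to RG7112 replicate 3, and the other 5 RG7112 arrays lay at 10.41 to 10.76. RUNX1 differed by -0.03 ± 0.12 SE under HDM201 (95% interval -0.29 to 0.23, adjusted p = 0.906 by limma) and by -0.21 ± 0.12 under RG7112 (95% interval -0.47 to 0.05, adjusted p = 0.272). Without RG7112 replicate 3 the RG7112 difference shrank to -0.07.

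Over the 9 genes the SD within a group lay between 0.07 and 0.26 under HDM201 (IRF8 and CEBPB), 0.06 and 0.36 under RG7112 (IRF8 and RUNX1) and 0.04 and 0.20 under DMSO (SPI1 and CEBPB). For 5 of the 9 genes the difference from DMSO had the same sign in replicates 1 to 3 and in replicates 4 to 6, under each compound. SPI1, CEBPB and CEBPD were among them for both compounds, and the genes whose sign turned had differences of at most 0.20 in size within either set.

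**Figure D3:**
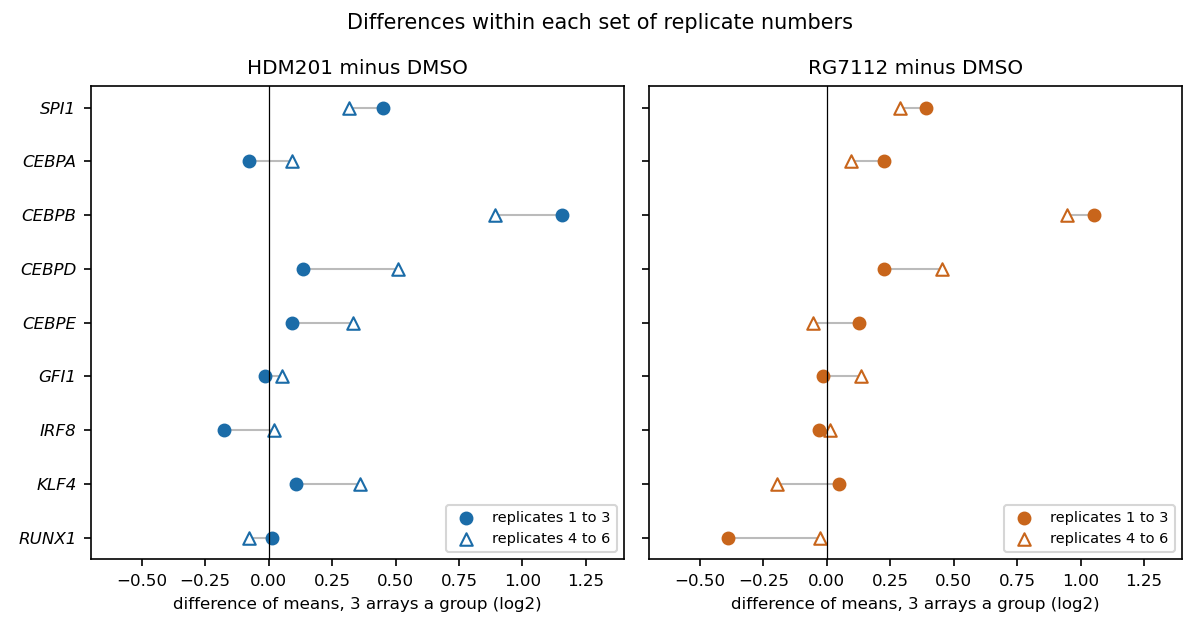
Differences from DMSO on the log2 scale within replicates 1 to 3 (filled circles) and within replicates 4 to 6 (open triangles), for HDM201 on the left and RG7112 on the right, each from 3 arrays a group. CEBPB lies between 0.89 and 1.15 in every case, and CEBPD lies higher in replicates 4 to 6 (0.51 and 0.45) than in replicates 1 to 3 (0.14 and 0.23).

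The direct comparison asks whether the compounds differed in their effect on these factors at the doses given, 500 nM HDM201 and 2 µM RG7112, which are not matched. None of the 9 genes differed after adjustment, as did none of all 21448 probes (0%), while 749 probes (3.49%) had an unadjusted p under 0.05. The interval of HDM201 minus RG7112 was -0.10 to 0.18 for SPI1, -0.23 to 0.28 for CEBPB and -0.21 to 0.18 for CEBPD, so differences of that size in either direction were not resolved with these arrays. For IRF8 it was -0.20 to 0.06, for GFI1 -0.22 to 0.14 and for CEBPA -0.34 to 0.03. KLF4 alone of the 9 had an unadjusted p under 0.05: it was higher under HDM201, at a mean of 5.92, than under RG7112, at 5.62 (difference 0.31 ± 0.13 SE, 95% interval 0.03 to 0.58, adjusted p = 0.991 by limma). Its arrays overlapped between the compounds. With any 1 array left out the KLF4 difference ran from 0.21 to 0.39. It was 0.06 within replicates 1 to 3 and 0.55 within replicates 4 to 6, the set that holds the lone HDM201 replicate 5. The intervals for CEBPE and RUNX1 ran from -0.09 to 0.44 and from -0.08 to 0.43.

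The genes with the array profile most like each factor that rose were sought by the root mean square difference of their log2 values over the 18 arrays, each gene centred on its own mean. For SPI1 they were MYH9, a non-muscle myosin chain (0.08), MAP2K2, the kinase MEK2 (0.08), and ETNK1, an ethanolamine kinase (0.08), where the median over named probes was 0.26. All 3 rose under both compounds, as a choice by likeness to SPI1 on these arrays favours, MYH9 not under RG7112 without RG7112 replicate 1 (adjusted p = 0.0507 by limma). For CEBPB they were the plexin PLXNB2 (0.12), the small GTPase RAP2B (0.13) and the phosphatase PHPT1 (0.13), against a median of 0.535. PLXNB2 rose by 1.18 under HDM201 and by 1.13 under RG7112, a closeness to CEBPB that its choice on the same arrays fixes. For CEBPD they were SUMF2, a sulfatase-modifying protein, ZFP36L2, an RNA-binding protein of mRNA decay, and APRG1 (0.12 each), against a median of 0.29. SUMF2 did not pass in either comparison with DMSO, but passed in several other settings, among them under both compounds without DMSO replicate 1 and under HDM201 without RG7112 replicate 3 or HDM201 replicate 2 (adjusted p from 0.0247 to 0.0445). The measure describes these arrays, in which all genes share the groups and the replicate sets.

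Of 25 measured relatives, CEBPZ among them by name only, 4 rose and 3 fell under HDM201, and 1 rose and 4 fell under RG7112. These are 28% and 20% of the list, against 18.8% and 17.5% of all probes, so the RG7112 share lies near that of all probes. CEBPZ, which shares the name but acts in ribosome biogenesis, fell by 0.55 under HDM201 and by 0.69 under RG7112, and the ETS factor ERG fell by 0.72 and 0.78. DDIT3, the stress factor CHOP that dimerises with C/EBP proteins, rose by 0.71 under HDM201 (adjusted p = 0.0275 by limma), with HDM201 replicate 5 at 5.52 below every DMSO array and the other HDM201 arrays at 6.85 to 7.31. It differed by 0.52 under RG7112 (adjusted p = 0.114), but passed there without HDM201 replicate 5 (0.0115). KLF10, a TGF-beta inducible factor, rose by 0.71 and 0.55, and RUNX2, a relative of RUNX1, differed by -0.24 and -0.26 without passing, though it passed in several other settings under each compound, among them HDM201 without RG7112 replicate 3 (0.0210) and RG7112 without its replicate 6 (0.0445). The DDIT3 call under HDM201 was lost without DMSO replicates 2, 4 or 6 or HDM201 replicates 1, 2, 3, 4 or 6 (adjusted p from 0.0501 to 0.0801), and the KLF10 call under RG7112 when any 1 of DMSO replicates 4 and 6 and RG7112 replicates 1, 2 and 3 was left out (from 0.0565 to 0.0706). The RG7112 count of 5 relatives was 3 without DMSO replicates 4 or 6 or RG7112 replicate 1, and the HDM201 count of 7 was 4 without HDM201 replicate 3.

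Partners and regulators of the factors were led by JUN, a partner of PU.1 on monocyte genes. It rose by 2.44 under HDM201 and by 2.18 under RG7112, with all 12 treated arrays above the DMSO arrays. TRIB1, the pseudokinase that sends C/EBPα to degradation, rose by 1.05 under HDM201 (adjusted p = 0.00163 by limma), and differed by 0.62 under RG7112 (adjusted p = 0.0612), with every treated array above the DMSO arrays. The TRIB1 call under RG7112 was made without RG7112 replicates 3, 4 or 6 or without HDM201 replicates 1 or 4 (adjusted p from 0.0331 to 0.0479). ID3, an inhibitor of helix-loop-helix factors, fell by 0.96 and 1.18, whereas ID2 differed by 0.38 and 0.32 without passing, though it passed in some other settings, among them HDM201 without DMSO replicate 1 (0.0472) or HDM201 replicate 4 (0.0479). SIN3A, a corepressor scaffold, fell by 0.62 under RG7112 (adjusted p = 0.0451) with RG7112 replicate 3 at 8.24 and the other 5 arrays at 9.79 to 10.06. Without that array the SIN3A difference was -0.34 (0.00209), and the call was lost without any 1 of the DMSO arrays, any 1 of the HDM201 arrays or RG7112 replicate 1. Under HDM201 it differed by -0.38 (0.250), and passed without RG7112 replicate 3 (2.96e-04). In all, 2 of 22 measured partners rose and 5 fell under HDM201, and 1 rose and 5 fell under RG7112, which is 31.8% and 27.3% of the list against 18.8% and 17.5% of all probes.

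Among other transcription factors of blood lineages, 4 of 28 measured rose and 4 fell under HDM201, and 3 rose and 4 fell under RG7112. That is 28.6% and 25% of the list, against 18.8% and 17.5% of all probes. EGR1, an early growth response factor that works with PU.1 in monocytes, rose by 1.65 under HDM201 and by 1.26 under RG7112. STAT3, the cytokine-activated factor known to act on CEBPB and CEBPD, rose by 1.11 and 0.97, and the B-lymphoid factor EBF1 fell by 0.90 and 0.71. BCL6, a repressor, rose by 0.97 under HDM201 and differed by 0.53 under RG7112 (adjusted p = 0.171 by limma), where replicate 3 lay at 7.49 and the other arrays at 9.12 to 9.80. Without that array BCL6 passed (0.86, adjusted p = 1.29e-04). NFE2, a factor of erythroid cells and platelets, did not pass (-0.66 and -0.74), but passed under HDM201 without RG7112 replicate 3 (0.00425) and under RG7112 without its replicates 1, 5 or 6 (from 0.0391 to 0.0487).

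Genes of the mature lineages, many of them described targets of the 9 factors, were counted beside them. Of 24 measured monocyte genes 12 rose and none fell under HDM201, and 9 rose and 1 fell under RG7112, a count of 10 that was 6 without RG7112 replicate 1. These are 50% and 41.7% of the list, against 18.8% and 17.5% of all probes. The gene that fell was the fractalkine receptor CX3CR1, named after its values were seen, with a difference of -0.64 under HDM201 (adjusted p = 0.108 by limma) and -0.82 under RG7112 (adjusted p = 0.0391). For CX3CR1 RG7112 replicate 3 lay at 7.33 and the other RG7112 arrays at 8.95 to 9.45. Its own difference without that array is not given here. The median log2 difference of that list was 0.35 and 0.25. ITGAM, the integrin chain CD11b, rose by 2.18 under HDM201 and by 2.09 under RG7112, the fatty acid receptor CD36 by 1.64 and 1.58, and S100A8 and S100A9, which form calprotectin, by 2.00 and 1.51 under HDM201 and by 1.56 and 1.24 under RG7112. CD14, the monocyte coreceptor for lipopolysaccharide, differed by 0.38 and 0.24 without passing. Of 19 measured granulocyte genes 6 rose and 1 fell under HDM201, and 3 rose and none fell under RG7112 (5 without DMSO replicate 1). These are 36.8% and 15.8% of the list, and the RG7112 share lies below the 17.5% of all probes. The gene that fell was PRTN3, the granule protease proteinase 3, named after its values were seen, by 0.41 under HDM201 (adjusted p = 0.0310 by limma), with a difference of -0.34 under RG7112 (adjusted p = 0.0801). CXCR2, a chemokine receptor of neutrophils, rose by 2.07 and 1.89, and the granule protein AZU1 by 0.91 and 0.79. FPR1, the formyl peptide receptor, rose by 0.46 under each compound at signals of 3.95 to 4.54 on treated arrays, near the bottom of the scale. CSF3R, the receptor of granulocyte colony-stimulating factor and a known target of C/EBPα, rose by 0.64 under HDM201 and differed by 0.49 under RG7112 (adjusted p = 0.0587 by limma), and passed there without RG7112 replicate 3 (1.60e-04) or DMSO replicate 1 (0.0430). MMP9, a gelatinase, differed by -0.46 and -0.30 without passing, and the RG7112 value ran from -0.51 to -0.13 with 1 array left out.

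**Figure D4:**
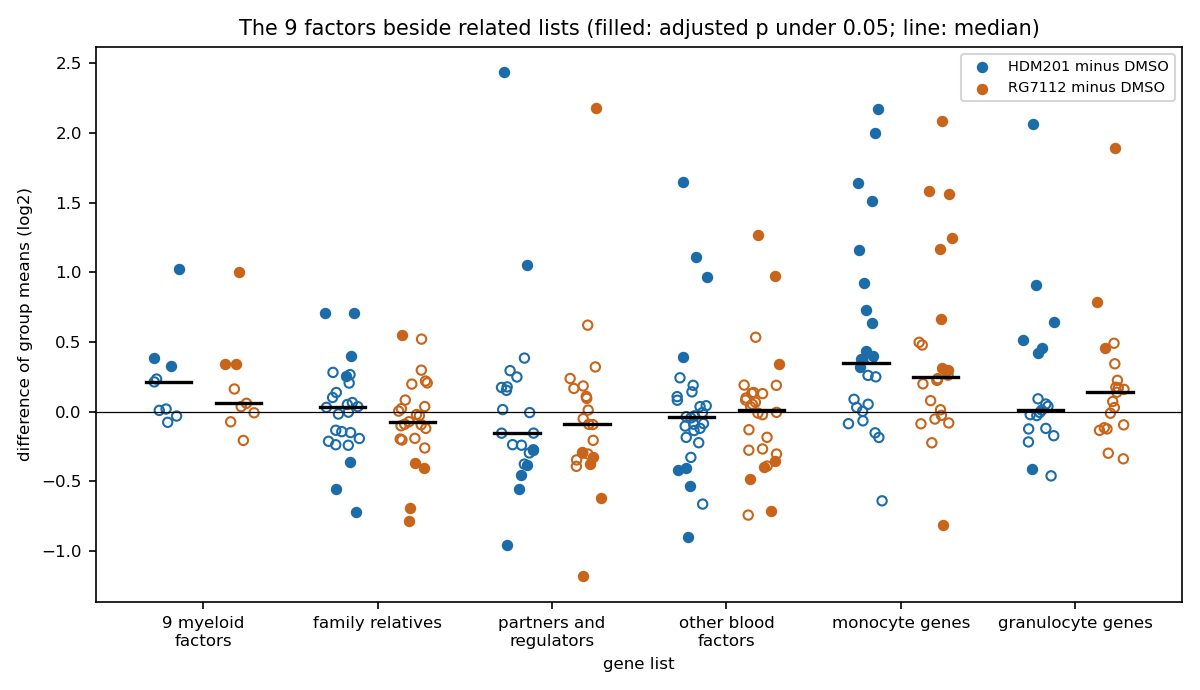
Log2 differences from DMSO for the 9 factors and for the measured genes of 5 related lists, HDM201 left and RG7112 right in each pair; filled points have an adjusted p under 0.05 and lines mark medians, and sideways scatter is only for display. The medians of the monocyte list lie at 0.35 and 0.25, and those of the 9 factors at 0.21 and 0.06.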

How the data were processed

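Values are the deposited log2 signals, 1 per probe and array; the authors used RMA in the oligo package, per the submitters' processing notes, with versions and genome build not given in the sources used here. RMA removes background, brings the arrays to 1 distribution and combines the probes of a set. It gives no detection call, and precision is limited by the 6 arrays a group. Probe names come from the platform's annotation: 17709 of 21448 probes have 1 symbol. Probes with none or with several were treated alike as unnamed, 3739 in all. All 18 columns were used.

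Each probe was fitted with limma 3.58.1 (R 4.3.3), a mean per group over the 18 arrays and the default empirical Bayes step. P-values were adjusted over all 21448 probes. The fit was tested on simulated arrays with independent noise and known differences. These held no replicate sets and no pairing, so the test does not cover such structure. Sets of replicates (1 to 3, 4 to 6), a split seen in the data and not given in the labels, were compared with a mean per group and set. Where HDM201 was set against RG7112, arrays of the same number deviated together (correlations of 0.12 to 0.44 over probes for the 6 pairs). Only 4 of 6 arrays matched their own number best, so this pairing too is a hint from the data, not stated in the labels. Blocking on the replicate number left the count of changed members at 0.

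Named genes are the 9 factors, the up to 4 changed genes with the largest mean difference and the largest unchanged one of each of 5 lists, and the 3 most similar profiles for each factor that rose. The factors, lists, motifs and tests were chosen with earlier results of these data known. Alternatives are given in the closing section.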

Additional observations from a re-analysis of the deposited data

Results flagged for a closer look

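Among 45 genes named here, 135 groups of 6 arrays were examined for a lone array, and 9 had a gap from that array to its neighbour, as a share of the whole range, above the 95% critical value of Dixon's test. Chance gives about 1 in 20 groups. Genes named after their values were seen, such as CX3CR1, CYBB and TYROBP, were not among the 45. Of the 9 factors, KLF4 on HDM201 replicate 5 lay at 6.40 with the next array at 5.90, RUNX1 on RG7112 replicate 3 at 9.80 with the next at 10.41, and GFI1 on DMSO replicate 3 at 10.61 with the next at 10.39. RG7112 replicate 3 was also low for SIN3A (8.24), BCL6 (7.49) and NFE2 (3.46), so 4 of the 9 values come from it, the array with the narrowest signal range. DDIT3 lay at 5.52 on HDM201 replicate 5. MAP2K2 was high on HDM201 replicate 3 (10.62) and on DMSO replicate 4 (10.24). The response to either compound was not shown to differ between replicates 1 to 3 and 4 to 6 for any named gene after adjustment over all probes. The estimates could still lie far apart. Under HDM201 ITGAM rose by 2.94 and JUN by 3.02 within replicates 1 to 3, against 1.41 and 1.86 within replicates 4 to 6. CDKN1A went the other way under HDM201, with 3.66 and 4.54.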

How the results depend on the processing

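For the 9 factors, 801 of 804 values under alternatives kept their side of the threshold and none reversed a call. The 3 lost calls came from sets of 3 arrays a group: CEBPD within replicates 1 to 3 (0.14 under HDM201, 0.23 under RG7112) and SPI1 under RG7112 within replicates 4 to 6 (0.29). The counts of changed factors were 3 under either compound with any 1 array left out and 2 to 3 in the other settings, and 0 between the compounds throughout. Same-numbered arrays of a compound and of DMSO tended to deviate together, but not in every pair, so the pairing with DMSO is a hint from the data only (correlations of deviations from 0.08 to 0.30 for HDM201 and from 0.02 to 0.37 for RG7112; 5 of 6 arrays matched their own number best in each). With the replicate number as a block, 3 factors changed under each compound, and 4866 probes changed under HDM201 and 4780 under RG7112, where the fit without the block gave 4032 and 3757. Of the other named genes, the block added calls for ID2 (adjusted p = 5.73e-04 under HDM201 and 0.00305 under RG7112 by limma), NFE2 (0.0108 and 0.00570) and RUNX2 (0.0491 and 0.0348), for MMP9 under HDM201 (0.00921) and for TRIB1 (0.0119) and CSF3R (0.0198) under RG7112. Within replicates 1 to 3 the probe counts were 2504 under HDM201 and 1973 under RG7112, and within 4 to 6 they were 2595 and 2148. Other named genes also lost calls within a set. Within replicates 1 to 3 these were S100A8, S100A9, FPR1 and SIN3A under RG7112 and ERG, BCL6, CSF3R and FPR1 under HDM201. Within replicates 4 to 6 they were KLF10, SIN3A and FPR1 under RG7112 and CEBPZ, DDIT3 and TRIB1 under HDM201. The similar profiles MYH9, MAP2K2, ETNK1, ZFP36L2 and APRG1 each lost a call in a set. BCL6 and CSF3R under RG7112 and SIN3A and SUMF2 under HDM201 gained a call within replicates 4 to 6. Between the compounds 1 probe passed without HDM201 replicate 6, against 0. The counts on the related lists moved more: partners and regulators from 5 to 11 under HDM201 (7 in the report) and from 2 to 12 under RG7112 (6), with 11 and 12 under the replicate block; relatives from 2 to 10 (7) and from 2 to 7 (5); other blood factors from 4 to 10 (8) and from 5 to 9 (7); monocyte genes from 7 to 15 (12) and from 4 to 13 (10); granulocyte genes from 3 to 8 (7) and from 2 to 5 (3), with 5 under the block; markers of other cells from 0 to 1 (1 and 0). The other 36 named genes kept their side in 3090 of 3219 values, with 58 lost calls, 71 gained and no reversal. The test of the response between replicate sets gave 0 factors in every setting tried for it, and the alternative settings of that test were chosen after seeing the data. All 9 factors have 1 probe, so averaging probes of a symbol was not run. Limits: 1 cell line, 1 dose and time per compound, no detection calls, and a replicate grouping whose origin is not given.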

Other observations

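Genes of the phagocyte oxidase, described targets of PU.1 in macrophages and neutrophils, were examined after their values were seen. NCF1, the organiser subunit p47phox, rose by 1.16 under HDM201 and by 1.17 under RG7112, although this gene has near-identical copies that a probe cannot always tell apart. CYBB, the catalytic subunit, rose by 0.40 and 0.31, and NCF4, the subunit p40phox, by 0.38 and 0.29. On RG7112 replicate 3 CYBB lay at 11.95, within the DMSO range of 11.92 to 12.22. CYBA, the partner of CYBB in the membrane, differed by -0.12 under each compound (adjusted p = 0.372 and 0.379 by limma). TYROBP, the adaptor DAP12 of myeloid receptors, rose by 0.92 and 0.67, with RG7112 replicate 3 at 10.58, below every DMSO array. CSF1R, the receptor of macrophage colony-stimulating factor and a classical target of PU.1 and RUNX1, differed by -0.07 and -0.08 (adjusted p = 0.889 and 0.842).

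Some partners of GFI1, RUNX1 and the C/EBP proteins were also noted after their values were seen. EHMT2, a histone methyltransferase, fell by 0.45 under HDM201 and by 0.38 under RG7112, and the deacetylase HDAC2 by 0.38 and 0.33. The deacetylase HDAC1 differed by -0.15 under HDM201 and by -0.09 under RG7112 without passing (adjusted p = 0.143 and 0.391 by limma). CBFB, the partner that stabilises RUNX1 on DNA, fell by 0.28 under HDM201 (adjusted p = 0.00866 by limma) and differed by -0.21 under RG7112 (adjusted p = 0.0520). CEBPG, a partner of other C/EBP proteins without a strong activation domain, fell by 0.36 and 0.41.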
